A study of Mus musculus with 31 samples.

Results

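The response of WT Panc02 tumor spheroids to medium conditioned by M1 macrophages was described across all genes, from 3 M1-CM libraries and 3 control (Ctrl) libraries among the 31 of the series. Panc02 is a murine pancreatic adenocarcinoma line, and all these spheroids were WT, grown in Matrigel and harvested on day 10. Macrophages were grown from the bone marrow of female C57BL/6J mice, M1 cells were polarized with IFNγ and then LPS, and the filtered supernatant was mixed with fresh medium. Ctrl spheroids received medium that no macrophage had conditioned, and 3 further libraries received M0-CM from macrophages without IFNγ and LPS. The macrophage medium held L929 cell supernatant, a source of M-CSF, so M1-CM and M0-CM both carried it and Ctrl medium did not. In M1-CM against Ctrl, products of the stimulated macrophages and of the medium they were grown in cannot be told apart, and M1-CM against M0-CM is the comparison that shares that medium. The table held 55487 genes, of which 19207 had enough counts to be tested. The labels do not say whether replicates were separate cultures, so p-values measure the spread between these libraries, which may be technical.

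M1 macrophages secrete TNF, IL-1β, IL-6 and type I interferon. In epithelial and mesenchymal cells, TNF and IL-1β act through NF-kB, the IL-6 family through JAK kinases and STAT3 together with C/EBP factors, and interferons through other STAT factors. Typical target genes of these pathways encode neutrophil-attracting chemokines, acute phase proteins, complement components and antiviral proteins.

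Total counts ranged from 43875429 to 78498230 per library. Among 10677 genes of at least 5 CPM, M1-CM library 2 had 758 genes above and 977 below the range of all other libraries by at least 0.5 on the log2 scale, and Ctrl library 2 had 63 and 342. The other libraries had 2 to 10 above and 8 to 37 below. The genes above in M1-CM library 2 had a median longest transcript of 4521 bases, those below 1997 bases, and all genes 3360 bases. The main counts are therefore also given without these 2 libraries. Of 20 macrophage markers, 10 had no count in all 6 libraries, among them *Adgre1*, *Itgam*, *Tyrobp* and *Spi1*. The summed marker level was 39.6 to 76.8 CPM in Ctrl and 98.6 to 208 CPM with M1-CM, and *Nos2* alone held 46.9 to 173 CPM of the latter. *Epcam* and *Cdh1*, which define epithelial cells, were at 0 in all 6 libraries, while *Krt8* was at 163 to 410 CPM and *Col3a1*, a mesenchymal collagen, at 1004 to 1397 CPM. CPM is the count relative to the scaled library total and compares a gene between libraries, not genes with each other. The summed fibroblast markers were at 1580.6 to 1970 CPM in Ctrl and 1569 to 1965 CPM with M1-CM, ductal markers at 279 to 478 and 227 to 395 CPM, lymphocyte markers at 1.56 to 1.94 and 4.16 to 10.1 CPM, acinar markers at 1.41 to 2.81 and 1.13 to 2.82 CPM, and endothelial markers at 0.339 CPM or less. The part of these markers in the results was not tested.

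M1-CM raised 3 genes, *Cxcl5*, *Lcn2* and *C3*, and all encode secreted proteins of innate defence. Calls required an adjusted p under 0.05 by edgeR and an absolute log2 fold change above 1, which 0.0156% of the genes tested met in the upward direction. No gene was called lower (0%), while 317 genes (1.65%) were lower and 586 (3.05%) higher at an unadjusted p under 0.05. DESeq2 called 64 genes higher and 20 lower. Of the genes tested, 856 (4.46%) had all 3 M1-CM libraries above all Ctrl libraries and 775 (4.03%) had them all below. Over all genes tested, the fitted log2 fold changes had a median of 0.01. Without Ctrl library 2 and M1-CM library 2, 2 genes were called higher and 0 lower. In bulk RNA, fewer cells of a type and less RNA per cell cannot be told apart.

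On GRCm38, *Cxcl5* spans chr5:90759360-90761624 on the plus strand, *Lcn2* chr2:32384633-32388252 and *C3* chr17:57203970-57228136, both on the minus strand. Counts were per gene and do not separate exons or isoforms.

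*Cxcl5* encodes a CXC chemokine that attracts neutrophils through CXCR2. It was at 78.1, 117 and 107 CPM in Ctrl and at 663, 719 and 662 CPM with M1-CM. The 3 M1-CM libraries lay close together, and the lowest was far above the highest Ctrl library. The fitted log2 difference was 2.76 (SE 0.17, edgeR adjusted p = 0.000474). It passed under every alternative setting, and with 1 library left out it ranged from 2.60 to 2.89.

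*Lcn2* encodes lipocalin 2, which binds bacterial iron carriers. It was at 0, 0.14 and 0 CPM in Ctrl and at 43.7, 74.5 and 26.3 CPM with M1-CM. Expression was thus at or near 0 in every Ctrl library, and the size of its log2 fold change, 9.76 (SE 0.88, edgeR adjusted p = 0.00682), rests on the counts of Ctrl library 2. Without that library the fitted value was 14.48, and without Ctrl library 3 the adjusted p was 0.0573. *C3* encodes the central complement protein, cleaved by all complement pathways. It was at 25.4, 19.0 and 18.1 CPM in Ctrl and at 298, 524 and 256 CPM with M1-CM. The groups were far apart, with M1-CM library 2 the highest. Its log2 fold change was 4.11 (SE 0.41, edgeR adjusted p = 0.0129). With Ctrl library 1, 2 or 3 left out the log2 fold change of *C3* was 4.27, 4.06 and 4.01, and the adjusted p was 0.0612, 0.16 and 0.122.

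**Figure D1:**
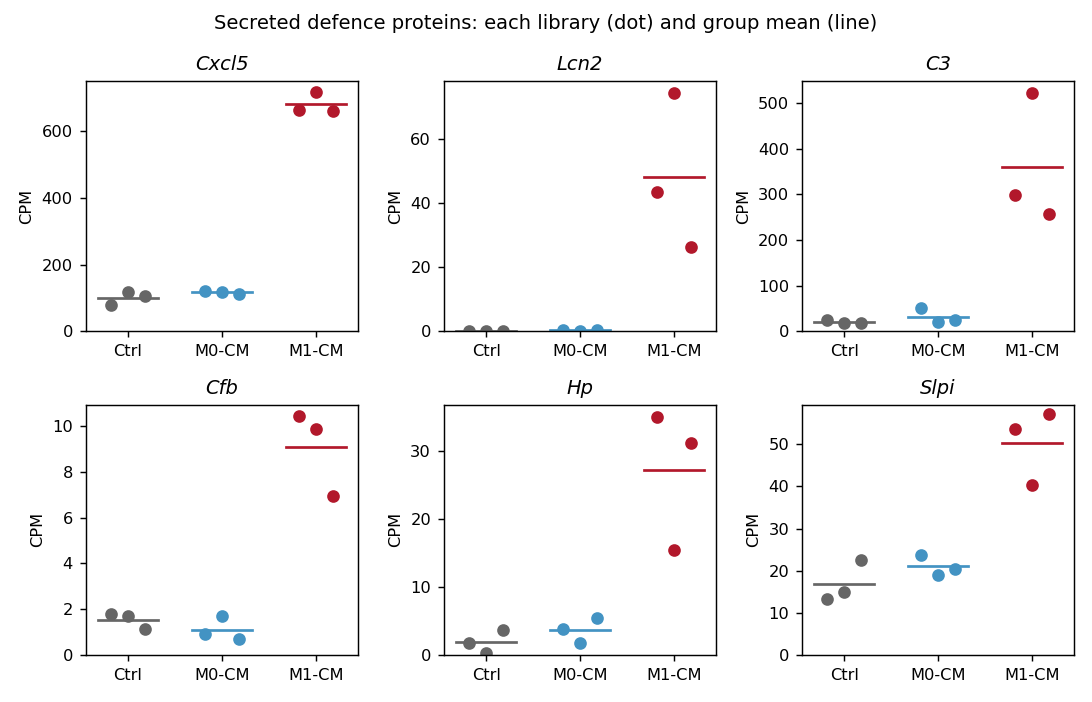
CPM of 6 genes of secreted defence proteins in each library (dots) of Ctrl, M0-CM and M1-CM, with the mean of each group (lines) and axes that start at 0. The M1-CM libraries lie above all Ctrl and M0-CM libraries for each of the 6 genes, from 26.3 CPM for the lowest of *Lcn2*.

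The sequence before the transcription start is shown for *Lcn2* and *C3*, which were called, and for *Saa3*, an acute phase gene detected only with conditioned media. Each is the 250 bases before the RefSeq start on GRCm38.p6, read 5′ to 3′ on the strand of the gene, and capitals mark matches on either strand to TTNNGNAA, the core of a C/EBP site. The *Lcn2* stretch is chr2:32387740-32387989, that of *C3* is chr17:57228137-57228386 and that of *Saa3* is chr7:46715677-46715926, all on the minus strand.
Lcn2: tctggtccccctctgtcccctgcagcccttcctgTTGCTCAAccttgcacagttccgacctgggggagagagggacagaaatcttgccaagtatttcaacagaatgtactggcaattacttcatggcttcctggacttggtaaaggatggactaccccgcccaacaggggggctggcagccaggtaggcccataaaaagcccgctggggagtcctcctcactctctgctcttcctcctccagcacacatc
C3: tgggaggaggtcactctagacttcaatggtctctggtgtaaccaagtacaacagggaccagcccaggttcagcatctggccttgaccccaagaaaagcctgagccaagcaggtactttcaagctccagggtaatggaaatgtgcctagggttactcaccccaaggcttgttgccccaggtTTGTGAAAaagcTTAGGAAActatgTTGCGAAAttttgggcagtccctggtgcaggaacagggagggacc
Saa3: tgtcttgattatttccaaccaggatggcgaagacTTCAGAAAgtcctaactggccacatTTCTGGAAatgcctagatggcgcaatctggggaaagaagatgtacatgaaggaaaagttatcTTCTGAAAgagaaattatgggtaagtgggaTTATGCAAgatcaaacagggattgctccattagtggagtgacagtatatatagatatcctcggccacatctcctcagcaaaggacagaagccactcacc
The match in *Lcn2* began 216 bases before the start. The 3 matches in *C3* lay within the last 70 bases before the start, and *Saa3* held 4. This short motif was found in 36.8% of all 32851 promoter stretches of the same length, so a match alone is common. By gene, it was found for 17 of the 21 acute phase and defence genes with a promoter entry (81%) and for 7 of 17 complement genes (41.2%), against 40.3% of all 27025 genes in the table. A match is a description of letters and not a site.

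Acute phase proteins are plasma and mucosal defence proteins made under IL-1 and IL-6. Of 25 listed genes 13 were tested and 1 was called higher (*Lcn2*). At an unadjusted p under 0.05, 7 were higher (53.8%, against 3.05% of all genes) and 0 lower. M1-CM libraries lay above all Ctrl libraries for 9 (69.2%, against 4.46% of all genes). The median log2 fold change of the list was 2.30, or 2.21 with genes at the floor set to their bound, against 0.01 over all genes. Without Ctrl library 2 and M1-CM library 2, 6 of 13 were higher at an unadjusted p under 0.05, with a median of 1.65. *Saa3*, a serum amyloid A protein, had no count in Ctrl and was at 3.30, 2.84 and 4.50 CPM with M1-CM, at least 76.7-fold higher. *Saa2* was at 0.176, 0.247 and 0.221 CPM with M1-CM and at 0 in Ctrl, at least 4.64-fold higher, and its reads may be shared with the near-identical *Saa1*.

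Haptoglobin (*Hp*), which binds free hemoglobin, was at 1.74, 0.229 and 3.64 CPM in Ctrl and at 35.0, 15.5 and 31.2 CPM with M1-CM. *Lbp*, which hands LPS to CD14, was at 1.05, 0.0762 and 0.713 CPM in Ctrl and at 5.17, 8.61 and 3.99 CPM with M1-CM. *Slpi*, an inhibitor of neutrophil elastase, was at 13.2, 15.0 and 22.6 CPM in Ctrl and at 53.6, 40.4 and 57.2 CPM with M1-CM. Neither *Hp* nor *Lbp* overlapped between the groups. Their log2 fold changes were 3.87 (edgeR adjusted p = 0.406) for *Hp*, 3.28 (adjusted p = 0.673) for *Lbp* and 1.58 (adjusted p = 0.099) for *Slpi*, and DESeq2 called all 3. *Nos2*, the inducible nitric oxide synthase, was at 30.9, 1.23 and 15.8 CPM in Ctrl and at 46.9, 173 and 98.9 CPM with M1-CM (log2 fold change 2.74, adjusted p = 0.965). The remaining 6 tested genes, with *Orm1*, *Cp* and *Il1rn* among them, ranged from -0.40 to 2.30 on the log2 scale and did not reach an unadjusted p under 0.05.

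The components of the complement cascade were measured next. Of 25 genes 13 were tested and 1 was called (*C3*). At an unadjusted p under 0.05, 5 were higher (38.5%, against 3.05% of all genes) and 1 lower, and the median log2 fold change was 0.23. Without the 2 libraries that stood apart the counts were 4 and 1 and the median 0.09, and without M1-CM library 2 alone the median was 0.42. *Cfb*, factor B, pairs with C3b in the alternative pathway. It was at 1.79, 1.69 and 1.13 CPM in Ctrl and at 10.4, 9.87 and 6.93 CPM with M1-CM (log2 fold change 2.56, SE 0.39, edgeR adjusted p = 0.12). DESeq2 called *Cfb*.

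Among genes of the classical pathway, *C1ra*, a protease of the C1 complex, was at 94.4, 85.6 and 81.6 CPM in Ctrl and at 196, 130 and 158 CPM with M1-CM. Its partner *C1s1* was at 410, 284 and 371 CPM in Ctrl and at 609, 408 and 561 CPM with M1-CM, where the groups overlapped. *C4b* was at 18.9, 11.3 and 23.98 CPM in Ctrl and at 46.1, 37.3 and 26.6 CPM with M1-CM. The log2 fold changes were 0.89, 0.57 and 1.02, with adjusted p of 0.197, 0.965 and 0.965. *Cr1l*, a membrane regulator that limits C3 cleavage on mouse cells, was the 1 member lower at an unadjusted p under 0.05. It was at 60.7, 71.7 and 66.0 CPM in Ctrl and at 53.3, 38.6 and 48.2 CPM with M1-CM (log2 fold change -0.50, adjusted p = 0.889). *Cd46*, *Cfp*, *Masp1* and *C3ar1* had log2 fold changes of -0.20, -0.11, 0.13 and 1.01 and did not reach an unadjusted p under 0.05.

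Chemokines recruit leukocytes, and colony-stimulating factors support them. Of 33 genes 24 were tested and 1 was called (*Cxcl5*). At an unadjusted p under 0.05, 10 were higher (41.7%, against 3.05% of all genes) and 0 lower. A log2 fold change above 0 was found for 23 of 24, which held for 51.7% of all genes. The median was 0.80. Without the 2 libraries that stood apart, 7 of 23 were higher at an unadjusted p under 0.05, with a median of 0.57. Among CXCR2 ligands, *Cxcl1* had no count in Ctrl and was at 0.864, 0.721 and 0.276 CPM with M1-CM, at least 13.4-fold higher. *Cxcl3* was at 26.5, 24.1 and 23.3 CPM in Ctrl and at 40.6, 37.9 and 33.2 CPM with M1-CM (log2 fold change 0.60, edgeR adjusted p = 0.673). *Cxcl15*, a CXC chemokine not counted here among the CXCR2 ligands, was at 0.905 to 1.57 CPM in Ctrl and at 1.71 to 3.01 CPM with M1-CM. The groups did not overlap for these 3 genes, among 7 of 24 (29.2%, against 4.46% of all genes) with M1-CM libraries all above Ctrl. For *Cxcl2* and *Ppbp*, also ligands of CXCR2, the groups overlapped, with log2 fold changes of 0.81 and 0.50. These 2 did not reach an unadjusted p under 0.05. *Cxcr2* itself had no count in any library.

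Monocyte chemoattractants overlapped between the groups. *Ccl2* was at 42.7, 69.1 and 78.5 CPM in Ctrl and at 71.5, 118 and 140 CPM with M1-CM, and *Ccl7* at 17.5, 27.5 and 42.1 CPM in Ctrl and at 34.3, 54.7 and 75.3 CPM with M1-CM. Both had their lowest value of each group in library 1. *Csf1*, which encodes M-CSF, was at 122, 105 and 104 CPM in Ctrl and at 161, 214 and 151 CPM with M1-CM, and *Il34*, another ligand of the M-CSF receptor, at 37.0, 36.6 and 34.8 CPM in Ctrl and at 44.8, 53.7 and 41.3 CPM with M1-CM. The log2 fold changes were 0.79 for *Ccl2*, 0.92 for *Ccl7*, 0.67 for *Csf1* and 0.37 for *Il34*, with adjusted p of 0.965, 0.965, 0.625 and 0.965. *Ackr3*, a scavenging chemokine receptor, was at 18.4 to 43.1 CPM in Ctrl and at 47.1 to 63.1 CPM with M1-CM (log2 fold change 0.78). With M0-CM it was at 52.2 to 64.4 CPM, and M1-CM over M0-CM gave a log2 fold change of -0.11. *Ackr3* was the 1 of 4 tested chemokine receptors with an unadjusted p under 0.05 against Ctrl. Of 24 tested receptors for macrophage products, 2 were higher at an unadjusted p under 0.05, *Il1rap* and *Il2rg*, a share of 8.33% against 3.05% of all genes, and without the 2 libraries that stood apart 1 of 25 was higher and 1 lower. *Il1rap*, the co-receptor of IL-1, was at 1.02 to 1.51 CPM in Ctrl and at 3.33 to 5.81 CPM with M1-CM.

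**Figure D2:**
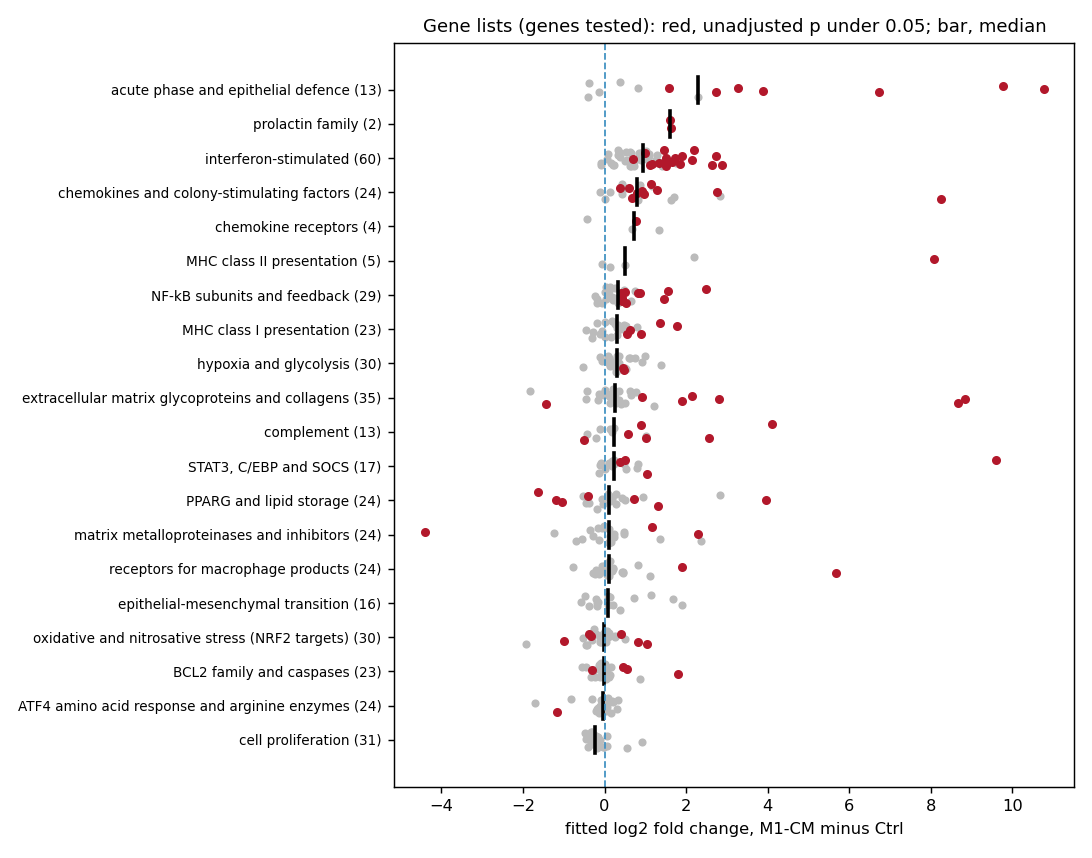
Fitted log2 fold change of M1-CM minus Ctrl for the tested members of 20 gene lists (dots, red at an unadjusted p under 0.05), with the list median (black bar) and the median of all genes (dashed line). The medians run from -0.23 for cell proliferation to 2.30 for acute phase and epithelial defence. Values near 8 and above belong to genes with few or no Ctrl counts.

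The upstream pathways were described by their subunits and feedback regulators. Of 29 tested NF-kB genes, 0 were called. At an unadjusted p under 0.05, 11 were higher (37.9%, against 3.05% of all genes) and 0 lower, with a median of 0.32. Without the 2 libraries that stood apart these were 9 of 29, with a median of 0.23. *Nfkb1*, which encodes the p105 precursor, was at 105, 106 and 103 CPM in Ctrl and at 124, 156 and 142 CPM with M1-CM. *Bcl3*, a nuclear IkB protein, was at 2.07, 2.24 and 2.92 CPM in Ctrl and at 5.83, 10.2 and 5.38 CPM with M1-CM. *Tnip3*, a ubiquitin-binding inhibitor of the pathway, was at 0.274, 0.394 and 0.783 CPM in Ctrl and at 2.75, 2.53 and 2.87 CPM with M1-CM. The log2 fold changes of these 3 genes were 0.43, 1.57 and 2.49, with edgeR adjusted p of 0.872, 0.458 and 0.682. They were among 9 of 29 (31.0%, against 4.46% of all genes) with M1-CM libraries all above Ctrl. *Nfkbie*, *Sod2* and *Ripk2* also had an unadjusted p under 0.05, but their groups overlapped. *Zc3h12a*, an RNase that degrades cytokine mRNAs, was at 4.99 to 6.34 CPM in Ctrl and at 6.42, 29.3 and 10.7 CPM with M1-CM, so most of its difference came from M1-CM library 2. *Nfkbia*, the main inhibitor, was at 41.2 to 53.3 CPM in Ctrl, 54.7 to 87.3 CPM with M1-CM and 55.6 to 74.7 CPM with M0-CM.

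Of 17 tested genes of STAT3, C/EBP and SOCS signalling, 4 were higher (23.5%, against 3.05% of all genes) and 0 lower at an unadjusted p under 0.05. Without the 2 libraries that stood apart these counts were 3 and 0. *Cebpd*, a C/EBP factor that responds to IL-6 and IL-1, was at 5.81, 8.90 and 10.96 CPM in Ctrl and at 15.3, 18.7 and 18.8 CPM with M1-CM (log2 fold change 1.04, edgeR adjusted p = 0.673). *Il6st*, which encodes the shared receptor chain gp130, was at 226 to 308 CPM in Ctrl and at 339 to 430 CPM with M1-CM. *Jak2* was at 52.4 to 62.1 CPM in Ctrl and at 68.3 to 80.6 CPM with M1-CM. *Elf3*, an epithelial ETS factor that was listed here but is outside these families, had no count in Ctrl. It was at 1.58, 2.25 and 0.919 CPM with M1-CM, at least 34.2-fold higher, while M0-CM libraries were at 0.205 to 0.5 CPM. The groups did not overlap for any of the 4, the only members of 17 (23.5%, against 4.46% of all genes) with M1-CM libraries all above Ctrl. They were named for their p, which favours groups without overlap. *Stat3*, *Cebpb* and *Socs3* had log2 fold changes of 0.12, 0.17 and 0.23 and did not reach an unadjusted p under 0.05.

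For the chemokines, the stretch before *Cxcl1* is shown because it holds the NF-kB consensus that recurs in the list. It is chr5:90890995-90891244 on the plus strand, and capitals mark 2 overlapping matches that together run from 71 to 61 bases before the start.
Cxcl1: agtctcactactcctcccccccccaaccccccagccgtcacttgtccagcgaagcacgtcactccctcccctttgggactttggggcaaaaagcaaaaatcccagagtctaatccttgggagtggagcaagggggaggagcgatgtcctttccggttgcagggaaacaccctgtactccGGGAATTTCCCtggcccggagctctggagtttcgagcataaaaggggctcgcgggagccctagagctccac
The consensus, searched on both strands, was found for 8 of 25 chemokine and colony-stimulating factor genes with an entry (32%) and for 9 of 24 NF-kB subunits and feedback genes (37.5%). Over all genes of the table the share was 4.46%.

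Interferon-stimulated genes encode antiviral and antigen-presenting proteins. Of 60 tested genes 58 had a log2 fold change above 0, with a median of 0.94, and 0 were called. At an unadjusted p under 0.05, 18 were higher (30%, against 3.05% of all genes) and 0 lower. Only 3 of the 60 (5%) had all M1-CM libraries above all Ctrl libraries, near the 4.46% over all genes. The M1-CM libraries were split. The median of the list, as log2(CPM + 0.5) minus the Ctrl mean, was -0.49 in M1-CM library 1, 1.52 in library 2 and 1.22 in library 3. M1-CM library 1 lay below both other M1-CM libraries for 54 of the 60 genes, against 26.9% of all genes tested. M0-CM library 1 did so within its group for 54 of 60 (against 37.3%) and Ctrl library 1 for 48 of 60 (against 34.2%). With M0-CM the list medians were -0.41, 0.74 and 0.65 in libraries 1, 2 and 3, and in Ctrl they were -0.47, 0.19 and 0.28. Library 1 was thus the lowest of each group, and the M1-CM and M0-CM libraries of that number were near the level of Ctrl library 1. The labels do not say whether libraries of the same number were grown or processed together, and this was not tested. Without M1-CM library 1, 46 of 60 genes were higher at an unadjusted p under 0.05 with a median of 1.33, against 4.22% of all genes. With Ctrl library 1, 2 or 3 left out there were 8, 11 and 11 of 60, against 5.96%, 2.24% and 2.55% of all genes. Without M1-CM library 2 there were 7 of 60, against 2.24%. Without both Ctrl library 2 and M1-CM library 2 there were 5 of 60 with a median of 0.64, against 2.35%.

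*Isg15*, a ubiquitin-like antiviral modifier, was at 12.1, 17.1 and 18.4 CPM in Ctrl and at 10.4, 73.9 and 47.0 CPM with M1-CM. *Irf7*, the transcription factor that amplifies type I interferon, was at 14.1, 25.2 and 29.4 CPM in Ctrl and at 14.0, 99.8 and 82.9 CPM with M1-CM. *Oas3*, which makes the activator of RNase L, was at 3.28, 3.07 and 5.03 CPM in Ctrl and at 2.13, 47.5 and 26.4 CPM with M1-CM. In each of these genes M1-CM libraries 2 and 3 lay above all Ctrl libraries and library 1 below them. *Ifitm1* and *Ifitm3*, membrane proteins that block viral entry, did not follow this split. *Ifitm1* was at 11.03, 24.2 and 19.4 CPM in Ctrl and at 62.1, 52.5 and 57.9 CPM with M1-CM (log2 fold change 1.66, edgeR adjusted p = 0.183). *Ifitm3* was at 77.8, 92.4 and 87.4 CPM in Ctrl and at 138, 228 and 210 CPM with M1-CM (log2 fold change 1.16, adjusted p = 0.386). *Isg20* was the other member without overlap, at 4.81 to 12.9 CPM in Ctrl and 13.2 to 20.7 CPM with M1-CM. With M0-CM it was at 13.6 to 19.0 CPM. Members of the *Oas1*, *Ifitm* and *H2-Q* families may share reads.

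**Figure D3:**
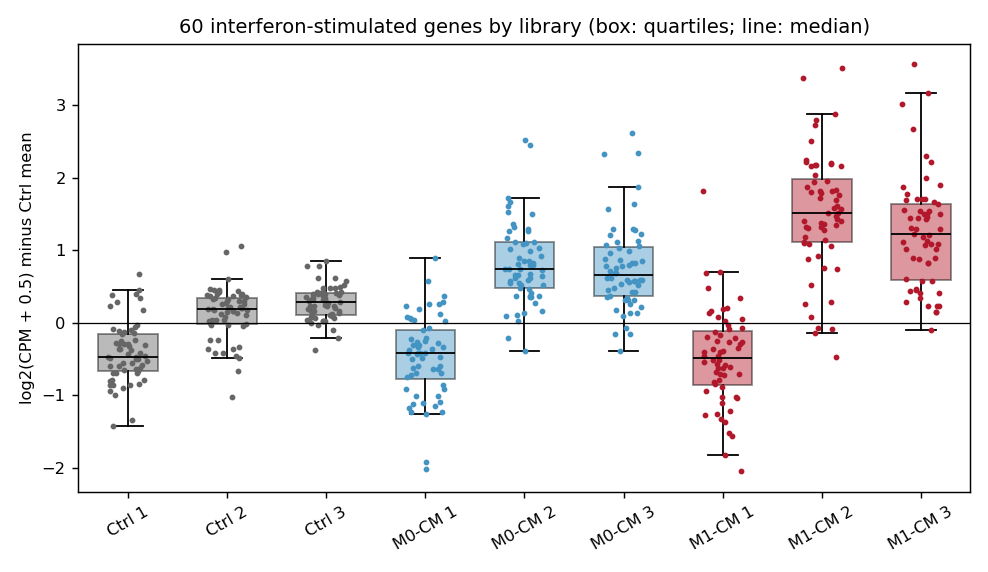
log2(CPM + 0.5) of 60 interferon-stimulated genes minus the Ctrl mean of each gene, by library (dots are genes, boxes the quartiles, the inner line the median). The median is -0.49 in M1-CM library 1 and 1.52 and 1.22 in M1-CM libraries 2 and 3.

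The stretch before *Isg15* is shown as an example of the element that recurs in this list. It is chr4:156200819-156201068 on the minus strand, and capitals mark 3 overlapping matches on either strand to the core of the interferon-stimulated response element (ISRE).
Isg15: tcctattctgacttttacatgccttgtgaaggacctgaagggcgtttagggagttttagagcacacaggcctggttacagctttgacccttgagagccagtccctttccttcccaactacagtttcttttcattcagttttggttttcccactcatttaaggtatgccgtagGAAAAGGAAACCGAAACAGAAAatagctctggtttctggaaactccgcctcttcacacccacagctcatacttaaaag
This core was found for 21 of the 43 listed genes with a promoter entry (48.8%) and for 3.46% of all genes of the table.

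In MHC class I presentation, 5 of 23 tested genes were higher (21.7%, against 3.05% of all genes) and 0 lower at an unadjusted p under 0.05. The median was 0.30, and without the 2 libraries that stood apart 2 of 23 were higher. *Psmb9*, an immunoproteasome subunit, was at 4.58, 6.31 and 5.59 CPM in Ctrl and at 10.7, 13.8 and 17.8 CPM with M1-CM, without overlap (log2 fold change 1.36, edgeR adjusted p = 0.71). *Nlrc5*, the transactivator of class I genes, was at 93.3 to 121 CPM in Ctrl and at 125 to 212 CPM with M1-CM. *Tap1*, which carries peptides into the endoplasmic reticulum, was at 35.5, 44.7 and 53.2 CPM in Ctrl and at 52.3, 98.2 and 98.5 CPM with M1-CM, with overlap through library 1. In MHC class II presentation, *H2-DMb2* had no count in Ctrl and was at 0.704, 0.33 and 0.625 CPM with M1-CM, but also at 0.439, 0.918 and 0.666 CPM with M0-CM.

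Of 35 tested matrix genes, 6 were higher (17.1%, against 3.05% of all genes) and 1 lower at an unadjusted p under 0.05. The counts were the same without the 2 libraries that stood apart. *Fbln2*, an elastic fiber glycoprotein, was at 0.387, 0.33 and 0.922 CPM in Ctrl and at 3.52, 5.50 and 2.44 CPM with M1-CM. *Ltbp2*, which binds fibrillin microfibrils, was at 0.936 to 1.15 CPM in Ctrl and at 2.11 to 5.65 CPM with M1-CM. *Enpp2*, which encodes autotaxin, the enzyme that makes lysophosphatidic acid, was at 3.26, 3.11 and 3.74 CPM in Ctrl and at 12.1, 27.5 and 5.18 CPM with M1-CM. The log2 fold changes of these 3 were 2.81, 1.91 and 2.15, with edgeR adjusted p of 0.689, 0.386 and 0.565. These 3 did not overlap, among 8 of 35 (22.9%, against 4.46% of all genes) with M1-CM libraries all above Ctrl. *Col9a3* and *Edil3* had no Ctrl count and were at least 20.1-fold and 17.8-fold higher, and both were also present with M0-CM. *Col27a1*, the 1 member lower at an unadjusted p under 0.05, was at 4.91 to 10.1 CPM in Ctrl and at 1.69 to 3.44 CPM with M1-CM.

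Of 24 tested metalloproteinases and inhibitors, 2 were higher (8.33%, against 3.05% of all genes) and 1 lower at an unadjusted p under 0.05, and 2 and 0 without the 2 libraries that stood apart. *Mmp9*, a gelatinase, was at 16.8, 16.4 and 9.52 CPM in Ctrl and at 27.3, 113 and 67.8 CPM with M1-CM (log2 fold change 2.28, edgeR adjusted p = 0.274), and DESeq2 called it. *Adamts7* was at 59.8 to 71.8 CPM in Ctrl and at 101 to 205 CPM with M1-CM. Of 16 tested genes of epithelial-mesenchymal transition, 0 reached an unadjusted p under 0.05 in either direction and the median was 0.09. The log2 fold changes of the 16 ran from -0.57 to 1.89, with *Vim* at -0.20, *Zeb1* at 0.09 and *Snai1* at 0.21.

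For cell proliferation, 31 of 31 genes were tested and 0 reached an unadjusted p under 0.05. The median was -0.23, and 4 of 31 had a log2 fold change above 0. Without Ctrl library 2 and M1-CM library 2 the median turned to 0.15, with 27 of 31 above 0 and 2 of 31 higher at an unadjusted p under 0.05, so the direction rested on these libraries. *Mki67* had a log2 fold change of -0.03 and *Pcna* of -0.49.

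Of 30 tested genes of hypoxia and glycolysis, 2 were higher (6.67%, against 3.05% of all genes) and 0 lower at an unadjusted p under 0.05, *Hif1a* and *Eno1*. *Hif1a* was at 373, 247 and 354 CPM in Ctrl and at 449, 422 and 451 CPM with M1-CM, with Ctrl library 2 the lowest (log2 fold change 0.44, edgeR adjusted p = 0.965). The list median was 0.30, and without Ctrl library 2 it was 0.09 and 0 of 30 reached an unadjusted p under 0.05. Against M0-CM the list median was -0.31. *Myc* had a log2 fold change of 0.75 against Ctrl and did not reach an unadjusted p under 0.05.

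Genes of PPARγ and lipid storage were found on both sides. At an unadjusted p under 0.05, 3 of 24 tested genes were higher (12.5%, against 3.05% of all genes) and 4 lower (against 1.65%). Without the 2 libraries that stood apart these counts were 2 and 3. *Pparg*, the nuclear receptor that drives fat storage, was at 16.3, 16.1 and 13.8 CPM in Ctrl and at 7.81, 7.07 and 7.55 CPM with M1-CM. *Plin4*, a lipid droplet coat protein and PPARγ target, was at 80.1, 122 and 131 CPM in Ctrl and at 41.3, 47.0 and 58.1 CPM with M1-CM. *Acox2*, a peroxisomal oxidase, was at 5.09, 4.69 and 3.57 CPM in Ctrl and at 1.39, 1.24 and 1.64 CPM with M1-CM. The M1-CM libraries of *Acox2* lay below every Ctrl library, and those of *Cpt1a* did too at 78.4 to 85.8 against 92.4 to 117 CPM. The log2 fold changes were -1.04, -1.19, -1.64 and -0.40, with adjusted p of 0.183, 0.225, 0.677 and 0.965 by edgeR, and DESeq2 called the first 3. On the other side *Scd1*, which desaturates fatty acids, was at 22.4 to 37.3 CPM in Ctrl and at 41.1 to 54.5 CPM with M1-CM. *Fabp5*, a fatty acid carrier, was at 1.44 to 4.26 CPM in Ctrl, 2.53 to 11.6 CPM with M1-CM and 7.72 to 10.4 CPM with M0-CM. The remaining member on this side, *Fabp4*, had a log2 fold change of 3.99 by DESeq2 (adjusted p = 0.112), which did not call it.

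At an unadjusted p under 0.05, the remaining lists are set against 3.05% of all genes higher and 1.65% lower. Of 30 tested NRF2 targets 3 were higher (10%) and 3 lower, with a median of -0.01, and 1 and 2 without the 2 libraries that stood apart. *Hmox1*, heme oxygenase, was at 78.6 to 167 CPM in Ctrl and at 201 to 318 CPM with M1-CM, while *Nqo1*, a quinone reductase, had a log2 fold change of -0.98. Of 24 genes of the ATF4 response and arginine enzymes 0 were higher and 1, *Ass1*, was lower. Of 23 genes in the list of the BCL2 family and caspases 3 were higher (13.0%), *Dram1*, *Casp4* and *Fas*, and 1, *Mcl1*, was lower. *Dram1* and *Fas* were listed there but belong to neither family. Both tested prolactin genes, *Prl2c2* and *Prl2c3*, were higher.

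Among the 12 genes of lowest p on the low side, *Fam167a* came first, at 8.49, 8.27 and 5.43 CPM in Ctrl and at 1.39, 1.83 and 1.01 CPM with M1-CM (log2 fold change -2.39, SE 0.31, edgeR adjusted p = 0.0645). *Lmo7*, an adherens junction and actin-associated protein, was at 20.4, 15.2 and 24.1 CPM in Ctrl and at 7.03, 7.56 and 8.33 CPM with M1-CM. *Gcnt1*, which branches O-glycans, was at 91.4, 83.1 and 104 CPM in Ctrl and at 39.7, 31.2 and 56.4 CPM with M1-CM. *Ass1*, which makes argininosuccinate for arginine synthesis, was at 35.9, 49.0 and 30.2 CPM in Ctrl and at 19.0, 12.6 and 20.1 CPM with M1-CM. The rest of the 12 were *Pparg*, *Ttc9*, *Plin4*, *Myo1e*, *1700023H06Rik*, *Plcg2*, *Als2cl* and *Grik2*, with log2 fold changes from -2.28 to -0.76. These 12, and the 12 on the high side with *Cfb* and *Slpi* among them, were chosen for groups that do not overlap, so that is no result.

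**Figure D4:**
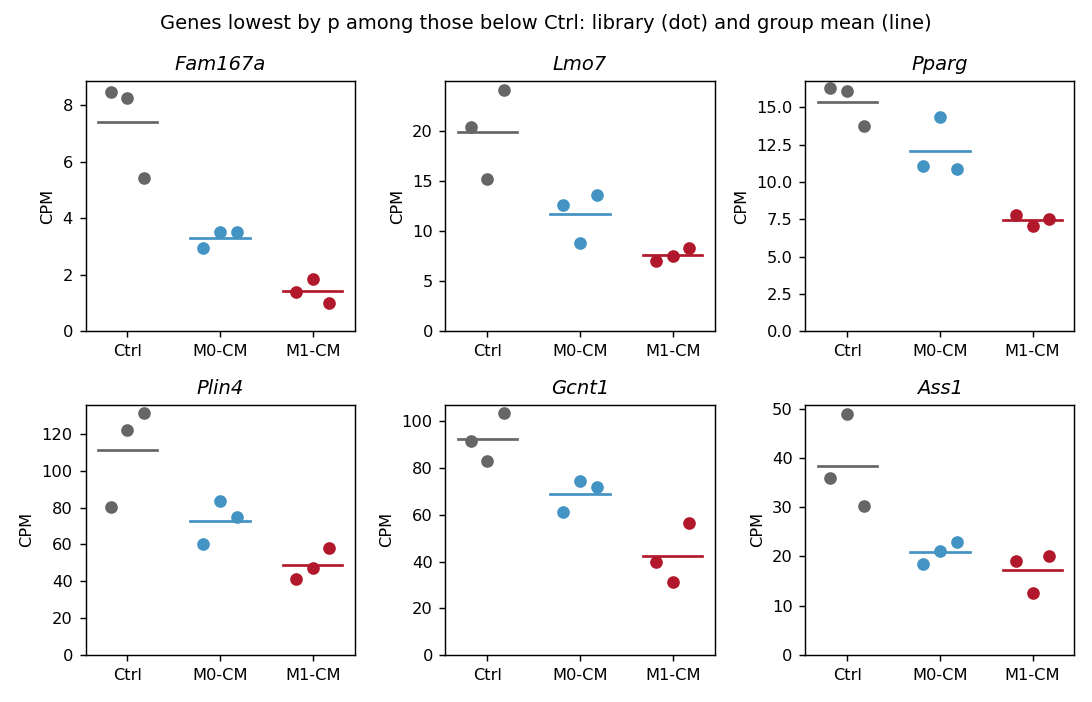
CPM of 6 of the genes of lowest p among those with M1-CM below Ctrl, in each library (dots) with the group mean (lines) and axes that start at 0. The M0-CM libraries lie between Ctrl and M1-CM for *Fam167a* and *Lmo7*, and for *Ass1* at 18.5 to 22.9 CPM they overlap the M1-CM libraries.

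On the high side, several genes outside the inflammatory lists stood among the 12 of lowest p. *Dram1*, a lysosomal protein of autophagy, was at 9.80, 16.2 and 11.6 CPM in Ctrl and at 54.9, 46.5 and 29.5 CPM with M1-CM (log2 fold change 1.80, adjusted p = 0.0987). *Slc6a12*, the betaine carrier, was at 5.55, 2.95 and 4.78 CPM in Ctrl and at 29.98, 16.2 and 22.6 CPM with M1-CM (log2 fold change 2.37, adjusted p = 0.183). *Ly6a*, the stem cell antigen Sca-1, was at 144 to 155 CPM in Ctrl and at 256 to 339 CPM with M1-CM. *Prl2c2*, a proliferin whose reads may be shared with its paralogs, was at 6.73 to 9.52 CPM in Ctrl and at 16.8 to 32.4 CPM with M1-CM. *Ighm* was at 1.56 to 1.93 CPM in Ctrl and at 3.77 to 9.96 CPM with M1-CM, while *Ms4a1* and *Cd3e* were at 0 in all 6 libraries. DESeq2 called *Dram1*, *Slc6a12*, *Prl2c2* and *Ighm*.

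Counting genes that were at 3 counts or fewer in every Ctrl library and at 10 or more in every M1-CM library gave 34 genes, and edgeR called 0 of them. Of the 34, 4 were also at 3 counts or fewer in every M0-CM library. Besides those above, the 10 highest held *Cfap54*, *Sema6c*, *Il2rg*, *Gm5970* and *Gm13963*, at least 13.7-fold to 34.4-fold higher by the M1-CM mean. M1-CM library 2 was the highest for each of these, and edgeR adjusted p ran from 0.646 to 0.965. *Gm5970* was at 0.224, 3.30 and 1.25 CPM with M1-CM, and *Cfap54* at 0.432, 1.44 and 0.496 CPM. *Il2rg*, the common γ chain of interleukin receptors, was at 0.0323, 0 and 0 CPM in Ctrl and at 0.256, 1.30 and 0.349 CPM with M1-CM. In the other direction 3 genes, *Tafa5*, *Atp2a3* and *Fam110b*, were at 0 in all M1-CM libraries and at least 8.67-fold, 8.22-fold and 5.03-fold lower.

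M1-CM against M0-CM asks what the IFNγ and LPS stimulation added, and it is the test of the difference between the effects of the 2 conditioned media, since both are read against the same Ctrl libraries. Here too 3 genes were called higher (0.0156%) and 0 lower (0%) by edgeR, with 309 (1.61%) and 189 (0.984%) at an unadjusted p under 0.05, and DESeq2 called 19 and 10. *Cxcl5* was at 119, 117 and 113 CPM with M0-CM, *Lcn2* at 0.424, 0.167 and 0.461 CPM and *C3* at 51.3, 20.03 and 25.5 CPM. The log2 fold changes of M1-CM over M0-CM were 2.55 (edgeR adjusted p = 0.000922), 7.09 (adjusted p = 0.026) and 3.48 (adjusted p = 0.0435).

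Named genes differed in where M0-CM lay. For *Ly6a* it was between the other groups, at 179 to 227 CPM. For *Slc6a12* it was at 4.70 to 13.2 CPM, with a mean of 10.1 CPM between the other groups but library 2 within the Ctrl range. *Cfb* was at 0.683 to 1.70 CPM with M0-CM and *Dram1* at 10.6 to 11.9 CPM, both close to Ctrl. Their log2 fold changes of M1-CM over M0-CM were 3.05 and 1.98, each with an edgeR adjusted p of 0.0761. *Fbln2* and *Enpp2* were at 0.0439 to 0.444 CPM and 1.93 to 2.57 CPM with M0-CM, with log2 fold changes of 3.77 and 2.72. By contrast *Prl2c2* was at 18.1 to 22.5 CPM with M0-CM, *Ighm* at 6.64 to 10.6 CPM, *Hmox1* at 169 to 335 CPM against 201 to 318 CPM with M1-CM, and *Ass1* at 18.5 to 22.9 CPM. For these 4 genes M1-CM over M0-CM gave log2 fold changes of 0.33, -0.39, 0.04 and -0.27, with SE of 0.24, 0.34, 0.32 and 0.23, and the libraries of the 2 media overlapped. By list, 7 of 13 acute phase genes, 7 of 24 chemokine and colony-stimulating factor genes and 7 of 29 NF-kB genes were higher with M1-CM than with M0-CM at an unadjusted p under 0.05, with medians of 1.69, 0.60 and 0.22. For interferon-stimulated genes it was 2 of 60, with a median of 0.56, and for class I presentation 1 of 23, with a median of -0.02. Over all genes the median was -0.01, and 1.61% were higher at an unadjusted p under 0.05.

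**Figure D5:**
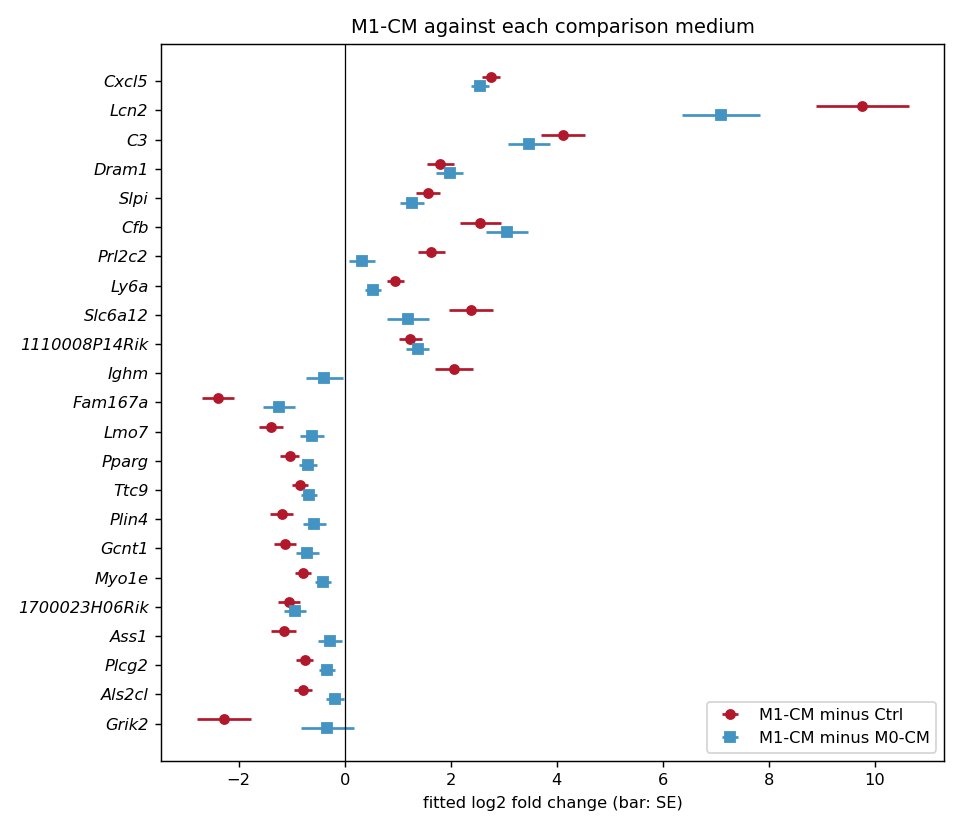
Fitted log2 fold change (SE as bars) of M1-CM minus Ctrl (circles) and of M1-CM minus M0-CM (squares) for 11 genes above and 12 genes below Ctrl, from those of lowest p in each direction. *Cxcl5*, *Lcn2* and *C3* are high in both, at 2.76 and 2.55 for *Cxcl5*, while *Prl2c2* at 0.33 and *Ighm* at -0.39 are near 0 against M0-CM.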

How the data were processed

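Gene expression was measured by RNA sequencing of 9 samples of Panc02 spheroids, 3 each in control medium, M0-CM and M1-CM. Per the study's methods, libraries of total RNA were stranded and HISAT2 was the aligner, on GRCm38. The authors deposited raw counts per gene that StringTie produced. StringTie derives counts from coverage, and the annotation release and the conversion to counts are not given in the sources used here. The other 2 count tables of the series were not used, and 0 columns of values in this table were left out. Groups came from the sample labels. Lists, members and tests were chosen with earlier results of these data known.

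Counts were scaled by TMM and tested in edgeR 4.0.16 (R 4.3.3) by quasi-likelihood on all 9 libraries, after edgeR's filter on low counts, with Benjamini-Hochberg adjustment over 19207 genes. CPM was computed on the scaled library totals. The SE was taken as the absolute log2 fold change over the root of its F statistic. For genes at or under 3 counts in each library of one group (the floor), folds are lower bounds set against 3 counts per library. The genes to name were every called gene, the 12 genes of lowest p in each direction among those of at least 1 CPM on average whose groups did not overlap, members of a list at an unadjusted p under 0.05, and in each direction up to 10 genes at the floor in one group with 10 or more counts in each library of the other. The text uses part of them, settled after the values were seen, and some items are not reported here. DESeq2 1.42.0, other scalings, filters and sets of libraries were alternatives. Replicate numbers are shared across groups. Over all genes tested, deviations of same-numbered Ctrl and M1-CM libraries from their group means correlated at -0.11, -0.24 and 0.06, and the numbers were not taken as pairs. These correlations cannot exclude a shared effect of the replicate number on some genes, and a fit with the replicate block was an alternative. Positions are from GENCODE vM21, promoters from RefSeq on GRCm38.p6. Tables and plots were made with Python 3.11.15, pandas 2.3.3, numpy 2.4.6 and matplotlib 3.10.9.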

Additional observations from a re-analysis of the deposited data

How the results depend on the processing

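Of the 138 genes named by the rule, 0 changed direction under any setting run. They were chosen from these same libraries by p or by groups that do not overlap, so this was close to fixed in advance. DESeq2 called 64 genes higher and 20 lower for M1-CM against Ctrl and 19 and 10 against M0-CM, and on only the 6 libraries compared 63 and 14, and 23 and 8. DESeq2 called 53 of the 138 named genes, 42 higher and 11 lower. With each library left out in turn, edgeR called 1 to 5 genes higher against Ctrl and 1 to 6 against M0-CM, and 0 lower in both. The 1 came without Ctrl library 3 and, against M0-CM, without M0-CM library 2, M0-CM library 3, M1-CM library 1 or M1-CM library 2, and the 5 and 6 without M1-CM library 3. *Cxcl5* was called in each of these fits against Ctrl, *Lcn2* was lost without Ctrl library 3 and in the fit of 6 libraries, and *C3* was lost without Ctrl library 1, 2 or 3. The labels do not say that replicate numbers mark pairs, and the numbers were not used as pairs. Over all genes tested, deviations of same-numbered libraries from their group means correlated at -0.11, -0.24 and 0.06 for Ctrl with M1-CM. For M0-CM with M1-CM they correlated at -0.05, -0.17 and 0.16. For interferon-stimulated genes alone, library 1 had the lowest list median of each group. With the replicate block as a term, 1 gene (*Cxcl5*) was called higher and 0 lower against Ctrl, and 1 and 0 against M0-CM. In that fit 28 of 60 interferon-stimulated genes were higher than Ctrl at an unadjusted p under 0.05, with a median of 0.71, against 18 of 60 without the block. Without Ctrl library 2 and M1-CM library 2, a choice made after seeing the data, 2 and 0 were called against Ctrl and 2 and 0 against M0-CM. The cause of these differences was not tested. The median SE of a log2 fold change was 0.31, which limits calls of small differences, and levels under about 3 counts per library could not be compared.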
